A study of Mus musculus with 6 samples.

Results

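The Hox genes were followed here in the newborn mouse cerebellum, a tissue that forms just in front of the region where these genes are normally used. Every locus of the deposited RNA-seq table that carried a symbol of the HoxA, HoxB, HoxC or HoxD cluster was taken, which gave 39 loci of 23793, and none of the 39 shared its locus with a second Hox symbol. All 39 were found in GENCODE M21 under the same symbol. Values are FPKM, fragment numbers scaled for transcript length and library size, so that levels of different genes can be compared per length.

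Cerebella were taken at postnatal day 0 from 3 conditional knockout animals or pools (cKO; Zeb2 f/f; hGFAP-cre) and 3 controls (Zeb2 f/+; hGFAP-cre), with 1 library each. Both groups carried hGFAP-cre, a Cre recombinase under the human GFAP promoter that acts in neural progenitors and glia, and the controls carried 1 floxed Zeb2 allele, so neither group was wild type. Zeb2 encodes a zinc finger transcription factor. The labels do not say how many animals went into a library, and p-values therefore measure the spread between these libraries.

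Hox genes encode homeodomain transcription factors that give cells along the head-to-tail axis their position. They lie in 4 clusters, and their order on the chromosome follows their order along the body: paralogue groups 1 to 4 are used in the hindbrain, groups 5 to 8 in the neck and thoracic cord, and groups 9 to 13 in the lumbar cord, limbs and tail. The cerebellum is known to arise from rhombomere 1, the foremost hindbrain segment, where Fgf8 from the midbrain-hindbrain boundary and Gbx2 act and Hox genes are off. The foremost Hox limit is that of Hoxa2, at the boundary of rhombomeres 1 and 2. In silent regions the clusters are held by Polycomb complexes, and in the segments behind they are opened under retinoic acid, Cdx factors and segment genes such as Egr2.

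The HoxA cluster spans chr6:52155590-52260880, HoxB chr11:96194316-96368256, HoxC chr15:102921103-103036852 and HoxD chr2:74668310-74765142 (GENCODE M21, GRCm38, the assembly of the mm10 build that the submitters' processing notes name). RefSeq promoter windows (GRCm38.p6, 250 bases before to 50 after a gene's start) were matched to 22 of the 39 Hox genes. Those of the Hox gene of the highest level (Hoxa2, chr6:52164782-52165081, minus strand), of one with a value above 0 in every library (Hoxd13, chr2:74667975-74668274, plus strand) and of one at 0 in every library (Hoxa9, chr6:52227321-52227620, minus strand) are shown 5′ to 3′, with each CG in capitals, because promoters rich in CG are the kind that Polycomb is known to hold.
Hoxa2: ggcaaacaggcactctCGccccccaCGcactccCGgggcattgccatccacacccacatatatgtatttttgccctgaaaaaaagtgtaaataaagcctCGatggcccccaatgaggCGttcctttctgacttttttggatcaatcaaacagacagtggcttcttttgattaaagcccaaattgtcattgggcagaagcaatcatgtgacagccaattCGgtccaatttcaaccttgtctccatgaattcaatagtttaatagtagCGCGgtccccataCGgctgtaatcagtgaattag
Hoxd13: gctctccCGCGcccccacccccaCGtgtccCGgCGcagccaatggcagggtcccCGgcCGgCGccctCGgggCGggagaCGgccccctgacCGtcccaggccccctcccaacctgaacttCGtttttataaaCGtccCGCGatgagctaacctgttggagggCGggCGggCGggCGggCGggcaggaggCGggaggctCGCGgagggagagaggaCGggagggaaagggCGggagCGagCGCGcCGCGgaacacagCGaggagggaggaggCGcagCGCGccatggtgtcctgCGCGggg
Hoxa9: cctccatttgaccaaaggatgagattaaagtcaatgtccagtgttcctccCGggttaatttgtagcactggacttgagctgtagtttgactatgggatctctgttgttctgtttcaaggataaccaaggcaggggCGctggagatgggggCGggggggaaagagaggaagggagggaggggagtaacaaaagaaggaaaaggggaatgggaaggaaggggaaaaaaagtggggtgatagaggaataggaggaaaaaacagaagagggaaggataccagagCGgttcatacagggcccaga
The Hoxa2 window held 9 CG, that of Hoxd13 37 and that of Hoxa9 4, so the Hox gene of the highest level did not have the window with the most CG. Hoxa9 does not stand for the other genes at 0 in every library. Among those, Hoxd4 also held 4, but Hoxa5 held 29 and Hoxa13 45, the most of any Hox window. The ratio of CG observed to CG expected from the content of C and G was 0.589 for Hoxa2, 0.904 for Hoxd13 and 0.280 for Hoxa9. With the median taken where a gene had more than 1 window, as Hoxa10 and Hoxd11 did, the ratio was above 0.6 for 11 of the 22 Hox genes (50%) and for 47.9% of all 16487 loci with a window. It was so for 3.59% of 3347 other protein-coding loci under 0.1 FPKM in all libraries and for 72.6% of 9557 protein-coding loci with a mean of at least 1 FPKM. The motif TATAAA, searched on both strands, lay in at least 1 window of 4 of the 22 Hox genes (18.2%), Hoxd13 included, and of 14.3% of all 16487 loci.

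No Hox gene was expressed at a level that the usual filter keeps. Of the 39 loci, 16 were listed at 0 in all 6 libraries, 21 were above 0 in some library and under 0.1 FPKM in all, and the other 2, Hoxa2 and Hoxb2, reached 0.213 and 0.104 FPKM at most. Over all loci of the table, 16.6% were at 0 in every library, 25.8% stayed under 0.1 FPKM and 57.2% reached 1 FPKM in at least 3 libraries, whereas among the Hox loci 41.0% were at 0, 94.9% were under 0.1 FPKM and 0 reached 1 FPKM in any library. The 16 loci at 0 were Hoxa5, Hoxa6, Hoxa9, Hoxa11, Hoxa13, Hoxb6, Hoxb8, Hoxc6, Hoxc9, Hoxc10, Hoxc11, Hoxc12, Hoxd4, Hoxd9, Hoxd10 and Hoxd12. Of 234 Hox values, 178 were 0 (76.1%).

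The low values moved in steps, and the step showed what 1 sequenced fragment was worth. On the scale inferred from single-transcript loci, the cKO libraries held about 21400000, 24400000 and 26500000 fragments and the controls about 28400000, 26800000 and 27400000, so that 1 fragment on a transcript of 1 kb was worth 0.0467, 0.0409 and 0.0378 FPKM in cKO 1, 2 and 3 and 0.0353, 0.0373 and 0.0365 FPKM in controls 1, 2 and 3. Each cKO library was thus the shallower by this estimate, and the same lone fragment gave a higher FPKM in cKO. These numbers are estimates made from the values. The 56 Hox values above 0 came to 26 of 1 fragment, 14 of 2 and 15 of 3 or more, with 9 as the highest (1 value, that of Hoxd11, rounded to 0), and 47 of the 56 lay within 0.25 of a whole number. A locus at 0 may still have been transcribed. A count of 0 allows up to 3 fragments, which on these Hox transcripts is 0.0434 to 0.160 FPKM in cKO 1, the shallowest library, and 0.0328 to 0.121 FPKM in control 1, the deepest. Intervals and floors cover counting error only.

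**Figure D1:**
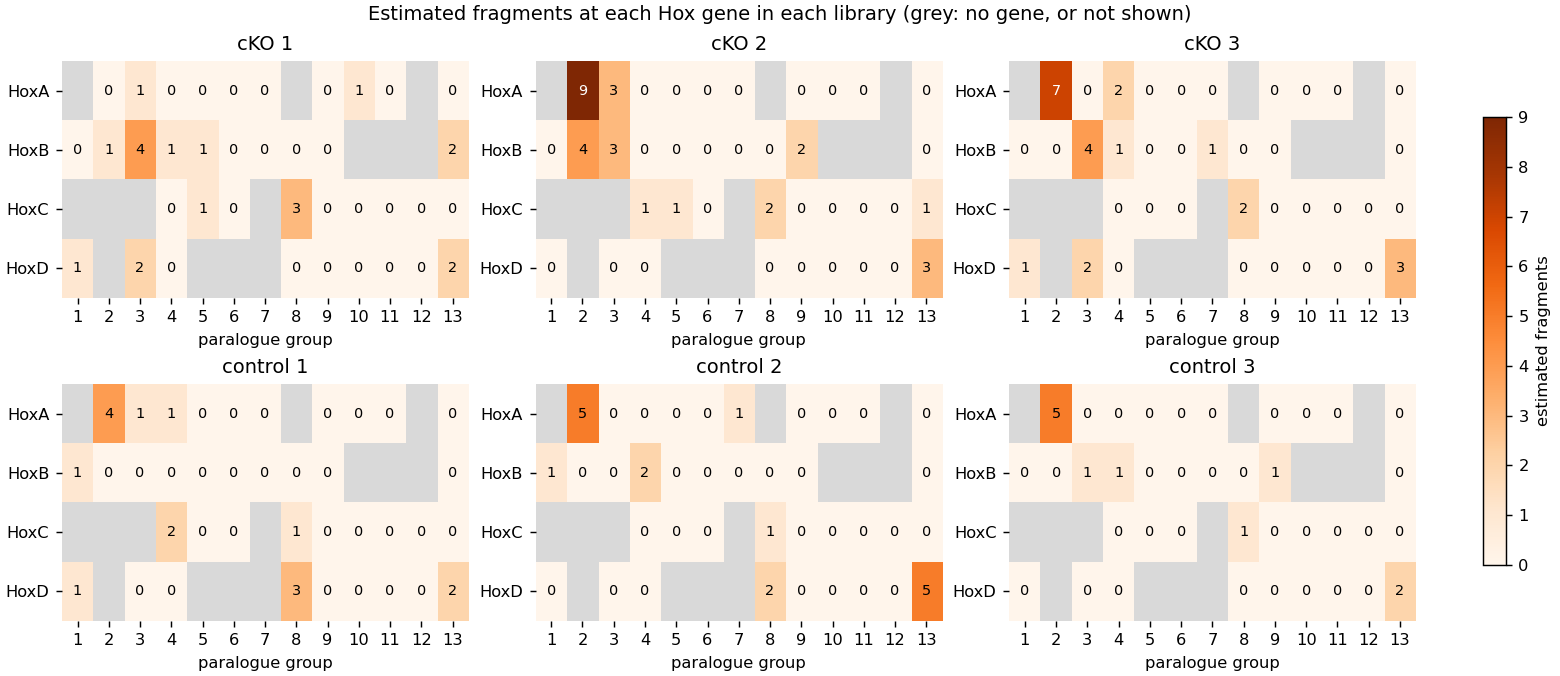
Estimated fragments at each Hox gene (columns: paralogue groups 1 to 13; rows: clusters HoxA to HoxD; grey: no gene at that place, or a gene not shown), 1 panel per library with cKO above control. Most squares hold 0, the highest is 9 (Hoxa2 in cKO 2), and Hoxd13 and Hoxc8 are above 0 in all 6 panels.

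Which Hox loci were above 0 differed between libraries, at a depth where most values are 1 or 2 fragments and a 0 allows up to 3. Values above 0 were found at 12, 10 and 9 Hox loci in cKO 1, 2 and 3 and at 11, 7 and 7 in controls 1, 2 and 3. Of the 23 loci above 0 in some library, 7 were so in 1 library, 9 in 2, 2 in 3, 2 in 4, 1 in 5 and 2 in all 6. Those in all 6 were Hoxd13, which in the embryo acts in the digits and the genital region, and Hoxc8, which acts in the thoracic and brachial cord. The loci above 0 in the most libraries were thus not hindbrain genes. By fragments over all libraries the order was another: Hoxa2 had 30, Hoxd13 17, Hoxb3 12 and Hoxc8 10. Hoxa2 was the locus above 0 in 5 libraries, and Hoxb3 and Hoxb4 were above 0 in 4. Of the 23, 8 were above 0 in cKO libraries alone, 5 in controls alone and 10 in both. This split was not counted over other loci of such low level, so it is not a result about the Hox genes.

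Summed over the 39 loci, the Hox level was 0.394, 0.582 and 0.419 FPKM in cKO 1, 2 and 3 and 0.321, 0.286 and 0.203 FPKM in controls 1, 2 and 3. The groups did not overlap, and their means were 0.465 ± 0.102 FPKM in cKO and 0.270 ± 0.0606 FPKM in controls (SD, n = 3 each), a difference of 0.195 FPKM spread over 39 genes. In fragments the sums were 20, 29 and 23 in cKO and 18, 17 and 12 in controls, 119 in all of an estimated 154900000. The exact 95% Poisson intervals, 12.2 to 30.9, 19.4 to 41.6 and 14.6 to 34.5 fragments in cKO and 10.7 to 28.4, 9.90 to 27.2 and 6.20 to 21.0 in controls, overlapped between all libraries. These intervals are of fragment numbers not scaled for depth. Their overlap is not a test of the groups and does not show that the groups are alike. Per 1000000 fragments of the scale, the sums were 0.934, 1.19 and 0.870 in cKO and 0.635, 0.634 and 0.438 in controls. The 2 processing sets, taken from earlier work on these data, are cKO 3 with control 1, and cKO 1 and 2 with controls 2 and 3. No label names these sets, they do not follow the deposits, and a shared processing was not shown here. In the smaller set the sums were 0.419 FPKM in cKO 3 against 0.321 in control 1. In the larger set they were 0.394 and 0.582 in cKO 1 and 2 against 0.286 and 0.203 in controls 2 and 3. This order follows from groups that do not overlap. No test was made of a sum over chosen genes. In whole tissue, fewer cells of a type and less RNA per cell cannot be told apart.

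**Figure D2:**
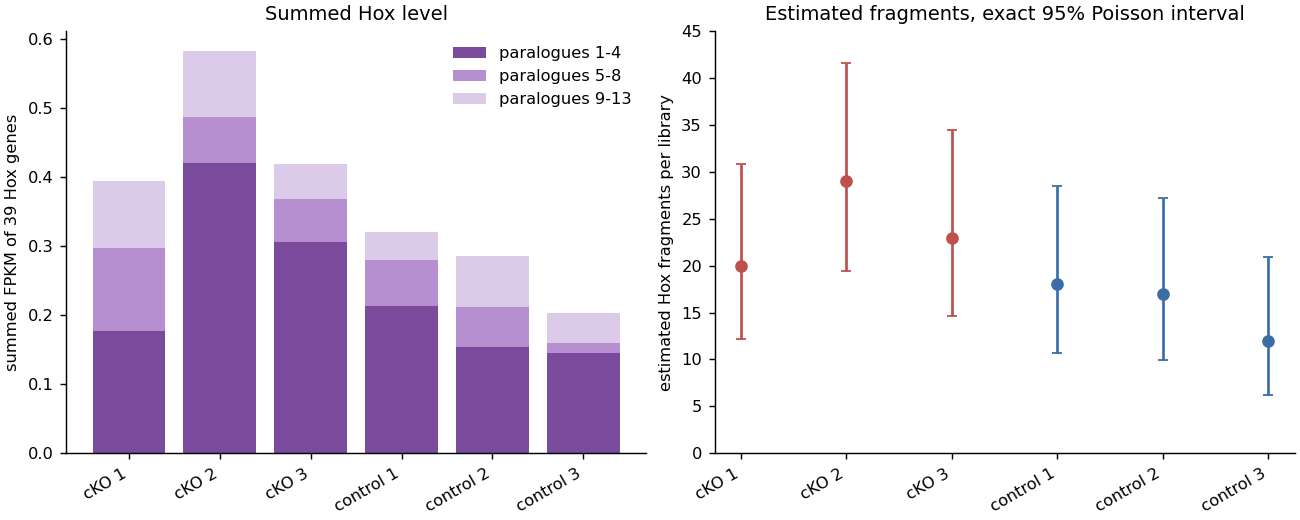
Left, summed FPKM of the 39 Hox genes in each library, stacked by paralogue groups 1 to 4, 5 to 8 and 9 to 13; right, estimated Hox fragments per library with exact 95% Poisson intervals (red cKO, blue control). The cKO sums, 0.394 to 0.582 FPKM, lie above the control sums, 0.203 to 0.321 FPKM. The intervals, of fragment numbers not scaled for depth, overlap between single libraries, which is not a test of the groups.

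The 12 loci of paralogue groups 1 to 4 held 75 of the 119 fragments (63.0%), 30 of them from Hoxa2 alone, and 1 of the 12, Hoxd4, was at 0 in all libraries. By library they held 10 of 20, 20 of 29 and 17 of 23 fragments in cKO and 12 of 18, 8 of 17 and 8 of 12 in controls, so their share was over 50% in 4 of the 6 libraries. The 11 loci of groups 5 to 8 held 20 fragments, with 5 at 0, and the 16 loci of groups 9 to 13 held 24, with 10 at 0. Within the first band, group 2 (Hoxa2 and Hoxb2) gave 35 fragments, group 3 gave 21, group 4 gave 11 and group 1 gave 8. In the last band 20 of the 24 fragments came from group 13, 17 of them from Hoxd13. Groups 6 and 12 were at 0 throughout.

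By library, groups 1 to 4 summed to 0.177, 0.421 and 0.306 FPKM in cKO and 0.213, 0.154 and 0.145 FPKM in controls, and the groups overlapped. Groups 9 to 13, the trunk and tail end, summed to 0.0969, 0.0952 and 0.0501 FPKM in cKO and 0.0410, 0.0740 and 0.0424 FPKM in controls, overlapping as well. By cluster, HoxA held 43 fragments, HoxB 31, HoxD 29 and HoxC 16. HoxB was the uneven one, with 9, 9 and 6 fragments in cKO and 1, 3 and 3 in controls, and it was singled out after its values were seen. The HoxD cluster had 5, 3 and 6 fragments in cKO and 6, 7 and 2 in controls.

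Hoxa2 (XLOC_017567), the gene of the foremost Hox limit, stood at 0, 0.213 and 0.143 FPKM in cKO 1, 2 and 3 and at 0.0735, 0.107 and 0.106 FPKM in controls 1, 2 and 3. In fragments these values were 0, 9 and 7 in cKO and 4, 5 and 5 in controls. The cKO libraries held both the lowest and the highest values, so the controls lay inside the cKO range. Means were 0.119 ± 0.108 FPKM in cKO and 0.0954 ± 0.0190 FPKM in controls (SD, n = 3 each; exact two-sided permutation test, p = 0.8, with 0.1 the smallest that 3 against 3 can give). Hoxa2 gave 25.2% of all Hox fragments. A mean at least as high as that of Hoxa2 was found for 70.1% of all loci of the table.

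Hoxb2, its paralogue in HoxB, which is known in the segments from rhombomere 3 back, stood at 0.0297, 0.104 and 0 FPKM in cKO and was listed at 0 in all 3 controls (exact permutation p = 0.4). Its values overlapped, since cKO 3 was at 0 like the controls. Hoxb3, a gene of the caudal hindbrain, stood at 0.0544, 0.0358 and 0.0475 FPKM in cKO and at 0, 0 and 0.0107 FPKM in controls, which is 4, 3 and 4 fragments in cKO against 0, 0 and 1 in controls. Every cKO value lay above every control value (exact permutation p = 0.1, the smallest possible). Hoxa3, the group 3 gene of HoxA, stood at 0.0181, 0.0476 and 0 FPKM in cKO and at 0.0148, 0 and 0 FPKM in controls (exact permutation p = 0.4). Cufflinks may divide fragments among overlapping transcripts of neighbouring Hox genes, and the sources used here give no strand setting, so which Hox gene of a cluster a lone fragment came from is uncertain.

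The 2 genes seen in all libraries lay further back. Hoxd13 stood at 0.0371, 0.0488 and 0.0501 FPKM in cKO and at 0.0304, 0.0740 and 0.0291 FPKM in controls, and the highest and the lowest value were both controls (exact permutation p = 1). Hoxc8 stood at 0.0781, 0.0514 and 0.0305 FPKM in cKO and at 0.0279, 0.0156 and 0.0153 FPKM in controls. Its groups did not overlap, though cKO 3 and control 1, which form the smaller processing set, were close (exact permutation p = 0.1, the smallest possible). Hoxb3 and Hoxc8 were 2 of the 21 Hox loci above 0 and under 0.1 FPKM in all libraries. Over all 2194 loci of that kind 6.61% did not overlap between the groups, and 5.56% did so with the higher values in cKO. By the estimate, 1 fragment is worth more FPKM in cKO 1 and 2 than in any control. Its bearing on these shares and on the 2 genes was not tested. Hoxb3 and Hoxc8 were also 2 of the 23 Hox loci above 0 in some library, against 20.2% of all 19852 such loci.

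**Figure D3:**
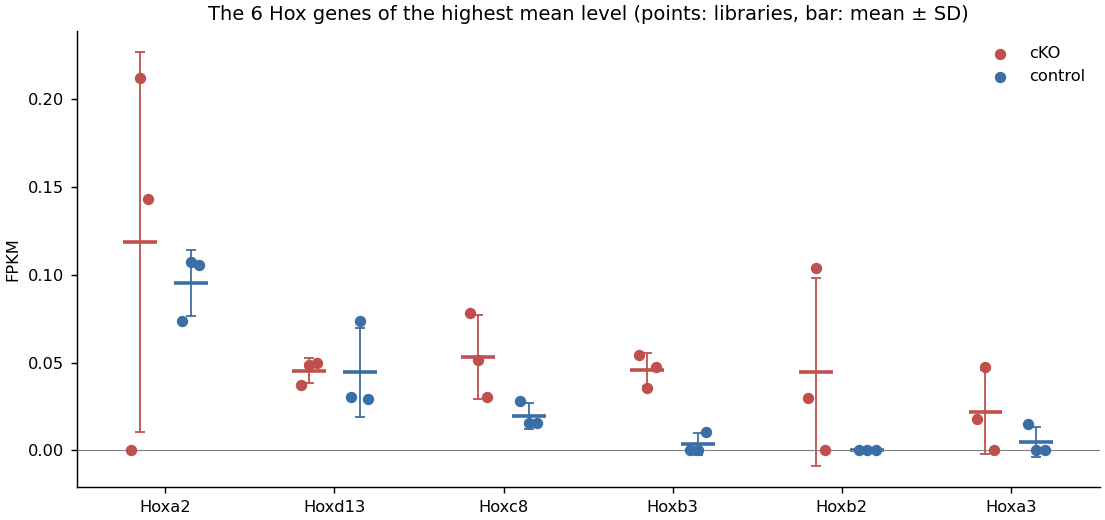
FPKM of the 6 Hox genes of the highest mean (points: libraries; bar and whisker: mean ± SD; red cKO, left of blue control). Hoxa2 spreads from 0 to 0.213 FPKM in cKO around the controls, and Hoxb3 and Hoxc8 are the ones whose groups do not overlap.

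The other 17 loci above 0 had no value over 0.0511 FPKM, that of Hoxa4 in cKO 3. Hoxb1, which marks rhombomere 4, was at 0 in all 3 cKO libraries and at 0.0155, 0.0180 and 0 FPKM in controls. It was thus above 0 in 2 of the 3 controls, with 1 fragment each, and it was named after its values were seen.

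Since no Hox locus reached 1 FPKM in 3 libraries, none entered the test of cKO against control (limma on log2(FPKM + 1)), in which 78 of 13612 loci passed an adjusted p of 0.05 (0.573%). With the filter removed, 23 Hox loci were tested and 0 passed, against 0.141% of 19852 loci. Of the 23, 1 had a p under 0.05 before adjustment, against 14.3% of all loci in that fit. It was Hoxb3, with a log2 fold change of 0.06 (SE 0.02, limma adjusted p = 0.244). At a pseudocount of 0.1 its log2 fold change was 0.49 (SE 0.13, limma adjusted p = 0.191), and again 0 of 23 passed, against 0.171% of all loci. Of the 23 log2 fold changes, 16 were above 0 and 7 below. The same split over all 19852 loci was not counted, so these numbers are not a result about the Hox genes. Of 2194 loci above 0 and under 0.1 FPKM in all libraries, 145 did not overlap between the groups, and 122 of these were higher in cKO. With loci of at least 0.1 FPKM in 3 libraries, Hoxa2 was the Hox locus that could be tested, at a log2 fold change of 0.01 (SE 0.43, limma adjusted p = 0.992), in a fit that called 0.409% of 16619 loci. At this depth, no difference in the 23 Hox loci tested could be told from the spread between libraries by this test. Hox loci at 0 in every library were not tested. A pseudocount of 1 flattens values this small, so 0 passing does not show that the groups are alike.

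The groups differ in more than Zeb2. Zeb2 itself (Mir5129,Zeb2) stood at 6.19, 3.89 and 5.81 FPKM in cKO and at 11.4, 9.52 and 7.995 FPKM in controls, without overlap, with a log2 fold change of -0.77 (SE 0.18) and an adjusted p of 0.107 by limma. The groups did not overlap at 23.9% of the 13612 loci tested. Xist stood at 142.7, 141.8 and 147.5 FPKM in cKO and at most at 0.515 FPKM in controls, and the Y-linked gene Eif2s3y at most at 0.108 FPKM in cKO and at 34.4 to 37.2 FPKM in controls. Sex and genotype cannot be told apart in any comparison of these groups.

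Of the 14 other loci placed inside the clusters, 13 were at 0 in all 6 libraries. Among them were 6 small RNAs such as Mir10a and Mir196b, the antisense RNA Hoxa11os and Hotair, a long RNA of HoxC. The other, 6720416L17Rik in HoxD (RefSeq's Haglr), was at 0 in all 3 cKO libraries and at 0.0142, 0 and 0 FPKM in controls 1, 2 and 3. Small RNAs are poorly captured by this kind of library, so a 0 there does not show their absence. Of the 4 nearest placed loci on each flank, small RNAs left out, 19 of 32 had a mean of at least 1 FPKM. The nearest of all, Hottip, a long RNA 1.90 kb beyond Hoxa13, was at 0 in all libraries. Next to HoxC, Hnrnpa1, an RNA-binding protein, reached 313 to 370 FPKM in cKO and 376 to 411 FPKM in controls, and Cbx5, a heterochromatin protein, 52.0 to 58.7 FPKM in cKO and 52.4 to 59.4 FPKM in controls. Next to HoxD, Mtx2, a mitochondrial import protein 60.7 kb from Hoxd1, stood at 47.5 to 50.5 FPKM in cKO and 46.7 to 48.9 FPKM in controls.

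Evx2, a homeobox gene of spinal and hindbrain interneurons, lies 8.75 kb from Hoxd13 and was the nearest of these 32 loci with a mean of at least 1 FPKM. It stood at 0.795, 0.909 and 1.30 FPKM in cKO and at 1.16, 1.57 and 1.33 FPKM in controls (log2 fold change -0.24, limma adjusted p = 0.364). Its level was thus above that of Hoxd13 in every library, where Hoxd13 had at most 0.0740 FPKM. Evx1, its counterpart 52.6 kb beyond Hoxa13, stood at 0, 0.0694 and 0.256 FPKM in cKO and at 0.0526, 0.0757 and 0.0992 FPKM in controls. Like Hoxa2 it was at 0 in cKO 1. Of the 12 tested members of the fixed list of flanking genes, 0 passed (lowest limma adjusted p = 0.0848, for Cbx1, at 43.4, 42.9 and 44.7 FPKM in cKO and 51.9, 52.9 and 49.7 FPKM in controls), 1 had a p under 0.05 before adjustment, against 17.6% of all loci in that fit, and their median log2 fold change was -0.04, against -0.01 over all loci tested.

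**Figure D4:**
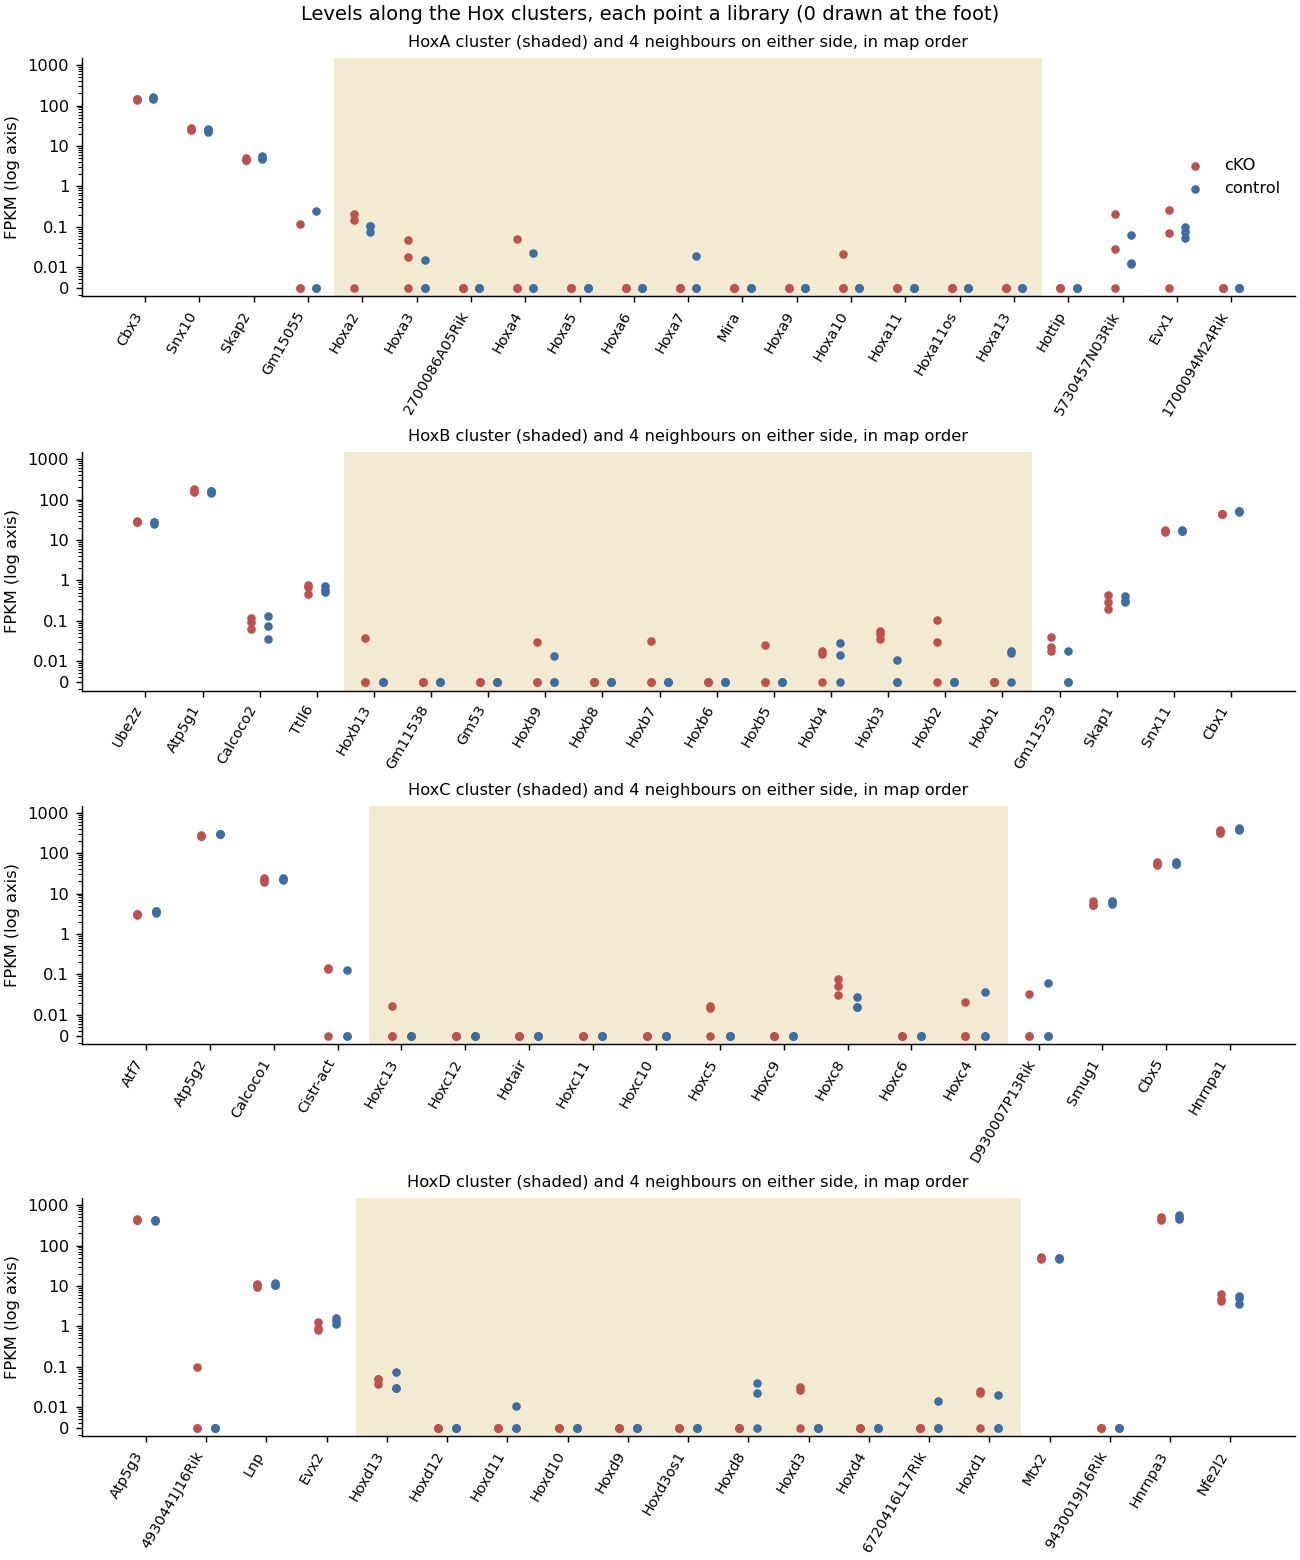
FPKM (log axis, 0 at the foot) along the 4 Hox clusters (shaded) and 4 neighbours on either side, in map order by gene start with small RNAs and 1 HoxA gene not shown, each point a library (red cKO, blue control). Values inside the shading stay at or under 0.213 FPKM, and 19 of the 32 flanking loci have a mean of at least 1 FPKM.

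Transcripts of the proteins that work with Hox proteins were present. All 9 TALE homeodomain cofactors, which bind DNA together with Hox proteins and also without them, were tested, and 0 passed. Meis1 stood at 42.4, 37.4 and 42.6 FPKM in cKO and at 48.4, 48.2 and 45.9 FPKM in controls (log2 fold change -0.21, SE 0.06, limma adjusted p = 0.172). Pbx3 averaged 34.7 ± 2.06 FPKM in cKO and 34.1 ± 2.56 FPKM in controls (SD, n = 3 each). Of the 9, 2 had a p under 0.05 before adjustment, against 17.6% of all loci in that fit, and the median log2 fold change was 0.03.

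Of the 14 upstream regulators 5 were tested and 0 passed. Cyp26b1, which breaks down retinoic acid, led them with 135, 82.4 and 107 FPKM in cKO and 112, 113 and 121 FPKM in controls. Gdf11, a signal for caudal identity, averaged 8.18 ± 1.90 FPKM in cKO and 7.63 ± 0.660 FPKM in controls, and Rara, a retinoic acid receptor, 5.78 ± 1.01 FPKM in cKO and 5.25 ± 0.314 FPKM in controls (SD, n = 3 each). Egr2, the gene of rhombomeres 3 and 5, stood at 0.314 to 0.444 FPKM in cKO and 0.264 to 0.420 FPKM in controls, but is also expressed outside the hindbrain segments. The caudal activators Cdx1, Cdx2 and Cdx4 reached at most 0.0304 FPKM in any library.

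All 20 Polycomb and trithorax regulators, the complexes known to keep Hox genes off and on, were tested and 0 passed, with a median log2 fold change of -0.04. Phc2 averaged 66.8 ± 2.30 FPKM in cKO and 68.5 ± 2.76 FPKM in controls, Pcgf2 45.2 ± 2.07 FPKM in cKO and 43.9 ± 2.41 FPKM in controls and Phc1 42.6 ± 3.46 FPKM in cKO and 42.3 ± 4.77 FPKM in controls (SD, n = 3 each). Of the 20, 6 had a p under 0.05 before adjustment, against 17.6% of all loci in that fit. These were Ezh2, Eed, Suz12, Cbx2 and Wdr5, with log2 fold changes below 0, and Kdm6a, above 0. Of the 20 log2 fold changes 6 were above 0 and 14 below, against 6401 and 7211 over all loci tested. A bearing of these genes on the Hox level was not tested. Ezh2, the enzyme that writes the repressive mark on histone H3, stood at 26.1, 23.3 and 25.5 FPKM in cKO and at 30.3, 34.2 and 29.4 FPKM in controls (log2 fold change -0.31, SE 0.07, limma adjusted p = 0.112). Kdm6a, an X-linked enzyme that removes that mark and escapes X inactivation, stood at 12.4, 12.6 and 10.4 FPKM in cKO and at 8.12, 9.15 and 8.54 FPKM in controls (log2 fold change 0.41, SE 0.08, limma adjusted p = 0.0891), a gene for which sex and genotype cannot be told apart.

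Genes known from rhombomere 1 were mostly measured above the filter. Of the list of 7, 6 were tested, 1 rose and 0 fell (of all loci tested 0.242% rose and 0.331% fell). The one that rose was Gbx2, the homeobox gene that sets the front of the hindbrain, at 19.3, 17.7 and 15.8 FPKM in cKO and 6.49, 7.74 and 9.02 FPKM in controls (log2 fold change 1.10, SE 0.12, limma adjusted p = 0.0231). The call rests on several libraries: the adjusted p was 0.113 without control 2, 0.110 without cKO 1, 0.0906 without cKO 2, 0.0701 with the deposit as a covariate, 0.160 with the replicate number as a block, 0.0583 with no filter and 0.0610 in the larger processing set. En2, a boundary gene, stood at 47.6, 39.9 and 48.7 FPKM in cKO and 43.9, 39.4 and 39.2 FPKM in controls. Pax2 averaged 16.7 ± 1.30 FPKM in cKO and 18.6 ± 2.14 FPKM in controls (SD, n = 3 each). Pax5 was lower, at 0.505, 0.480 and 2.06 FPKM in cKO and 0.464, 1.41 and 1.06 FPKM in controls, with groups that overlapped. Fgf17 was the one not tested, at 1.03, 0.550 and 0.878 FPKM in cKO and 0.164, 0.296 and 0.134 FPKM in controls, without overlap. Another gene of the list, which was tested, did not overlap either. Groups did not overlap at 20.2% of the 19852 loci above 0 in some library. Of the 6 tested, 2 had a p under 0.05 before adjustment, against 17.6% of all loci in that fit. On the other side of the boundary, Otx2, the gene of the midbrain and forebrain that cerebellar granule cell precursors also use, stood at 10.3, 21.5 and 19.0 FPKM in cKO and 16.4, 20.6 and 10.8 FPKM in controls. The forebrain gene Emx2 had at most 0.0155 FPKM in any library, and of that list of 7, 2 were tested and 0 passed.

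**Figure D5:**
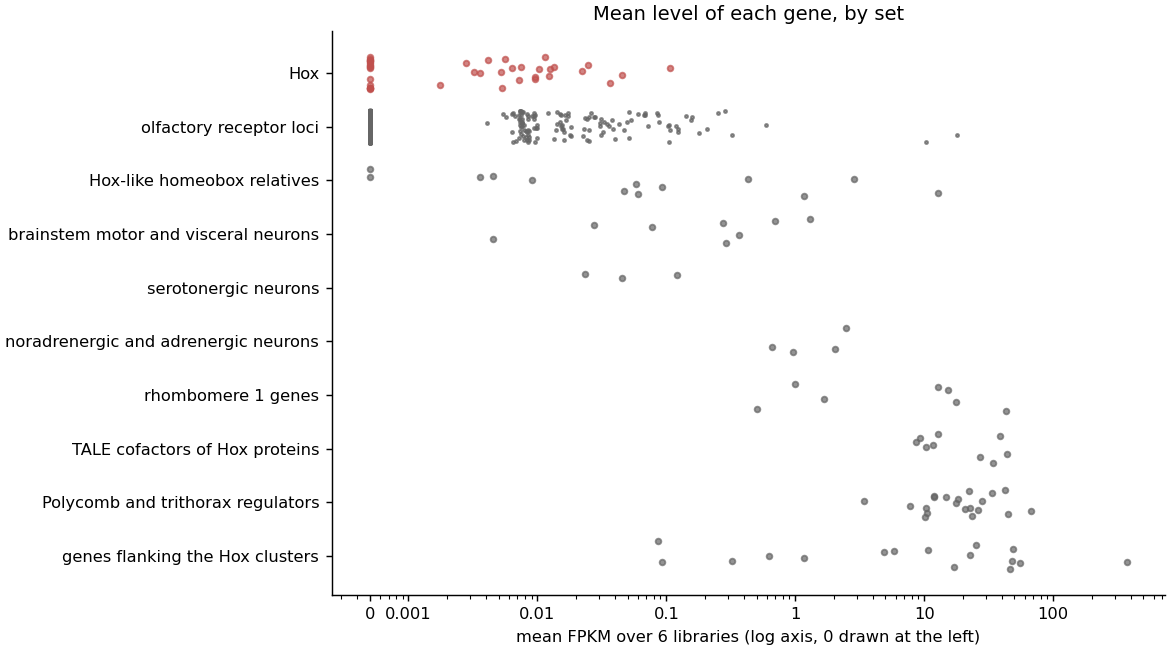
Mean FPKM over the 6 libraries (log axis, 0 at the left) of each gene in 10 sets, the Hox genes in red at the top. Hox genes lie at or under 0.107 FPKM like most olfactory receptors, while TALE cofactors and Polycomb and trithorax regulators have means of at least 1 FPKM.

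How empty 39 loci at this level are can be read against genes of the nose. Of 1112 olfactory receptor loci, 88.1% were at 0 in all libraries, 96.4% stayed under 0.1 FPKM and 1.26% had a mean as high as that of Hoxa2. Of 336 vomeronasal receptor loci, 79.5% were at 0 and 95.2% under 0.1 FPKM. The share under 0.1 FPKM was thus close to the 94.9% of the Hox loci, and the share at 0 was higher than their 41.0%. Of 13 homeobox genes related to Hox by sequence, 2 were at 0 and 3 had a mean of at least 1 FPKM, Gbx2, Gsx1 and Evx2. These sets were chosen after values had been seen, and olfactory receptor genes of similar sequence can share reads.

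Genes of brainstem neurons were sought as a second sign of tissue behind the cerebellum. Of 8 genes of motor and visceral neurons, 1 was tested and 0 passed: Slc5a7, the choline transporter, at 1.49, 1.16 and 1.49 FPKM in cKO and 1.37, 1.05 and 1.31 FPKM in controls. Isl1, a motor neuron gene, stood at 0.291, 0.815 and 0.825 FPKM in cKO and 0.851, 0.639 and 0.771 FPKM in controls, lowest in cKO 1. Phox2a, which visceral motor neurons and the locus coeruleus use, stood at 0, 0.238 and 0.192 FPKM in cKO and 0.373, 0.552 and 0.850 FPKM in controls. Chat, the defining enzyme of cholinergic neurons, had at most 0.119 FPKM, and Mnx1, of somatic motor neurons, was at 0 in 5 of the 6 libraries. Summed over the list, the level was 2.18, 2.87 and 3.58 FPKM in cKO 1, 2 and 3 and 3.03, 2.92 and 3.69 FPKM in controls 1, 2 and 3. The library cKO 1, which had no Hoxa2 fragment, was the lowest in this sum, in Isl1, in Phox2a and in Chat, but had 12 other Hox loci above 0, the most of any library.

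The 3 serotonergic genes had at most 0.168 FPKM (Tph2) and 0 were tested. Of the 3 measured sensory relay genes 2 were tested and 0 passed: Tlx3 at 15.03, 16.7 and 21.6 FPKM in cKO and 27.1, 26.3 and 22.8 FPKM in controls (log2 fold change -0.50, SE 0.13, limma adjusted p = 0.142), a gene that cerebellar glutamatergic lineages also use, and Lbx1 at 3.84, 4.16 and 3.73 FPKM in cKO and 6.85, 6.64 and 4.67 FPKM in controls (adjusted p = 0.131 by limma). Of 4 noradrenergic and adrenergic genes 3 were tested and 0 passed. Dbh, which makes noradrenaline, stood at 0.326, 0.536 and 0.823 FPKM in cKO and 1.92, 4.45 and 6.78 FPKM in controls (log2 fold change -1.69, SE 0.34, limma adjusted p = 0.0839), and Slc6a2, the noradrenaline transporter, at 0.238, 0.461 and 0.804 FPKM in cKO and 1.83, 3.53 and 5.29 FPKM in controls (adjusted p = 0.0762 by limma). Not every member separated in this way. Pnmt, which was not tested, stood at 0.742, 0.651 and 0.509 FPKM in cKO and 0.321, 0.838 and 0.873 FPKM in controls. The groups of the other tested gene overlapped as well. Dbh and Slc6a2 transcripts mark the locus coeruleus, itself a derivative of the Hox-free rhombomere 1 beside the cerebellum. Among the controls, control 3 had the most Dbh and the lowest Hox sum, and control 1 the least Dbh and the highest Hox sum. The cKO libraries did not share this order. There cKO 1 had the least Dbh and also the lowest Hox sum, and cKO 3 the most Dbh and a Hox sum between the others. A relation between Dbh and the Hox sum was not tested.

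Tissue that lies on the cerebellum also varied between libraries. The 9 meningeal fibroblast genes, of which 8 were tested and 0 passed, summed to 44.4, 72.0 and 23.7 FPKM in cKO 1, 2 and 3 and to 44.3, 23.6 and 24.5 FPKM in controls 1, 2 and 3. Among them Col3a1, a collagen, stood at 10.1, 23.1 and 3.49 FPKM in cKO and 9.28, 1.70 and 1.24 FPKM in controls, Islr at 11.2, 10.6 and 8.18 FPKM in cKO and 16.7, 12.4 and 13.8 FPKM in controls, and Col1a2 at 7.68, 11.2 and 4.18 FPKM in cKO and 7.46, 4.56 and 2.82 FPKM in controls. The 9 choroid plexus genes, of which 3 were tested and 0 passed, summed to 17.04, 29.9 and 16.98 FPKM in cKO and 19.0, 22.1 and 22.6 FPKM in controls, with Ttr, its carrier of thyroid hormone, at 0.832, 11.0 and 1.02 FPKM in cKO and 0.994, 4.24 and 6.16 FPKM in controls. The library cKO 2 was the highest in both sums and in the Hox sum. Their part in the Hox sum was not tested. Of the blood cell genes 4 loci were tested and 1 rose, a Hba-a1,Hba-a2 locus (XLOC_002524) at 2.14, 1.15 and 1.56 FPKM in cKO and listed at 0 in all 3 controls (adjusted p = 0.0177 by limma, where 0.242% of all loci tested rose). Its twin locus (XLOC_002522) stood at 2.48, 5.12 and 3.72 FPKM in cKO and 7.80, 10.6 and 2.71 FPKM in controls, and since the copies are nearly identical, which of them a read belongs to is uncertain. Without control 1, 2 or 3 the adjusted p of the first was 0.0770, 0.0970 and 0.0507, and without cKO 3 it was 0.0567. It was 0.0933 with the replicate number as a block, 0.0590 with the deposit as a covariate, 0.167 in the larger processing set and 0.0902 in the first deposit alone.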

How the data were processed

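RNA-seq of 3 cKO and 3 control cerebella at postnatal day 0 was used. Trizol extraction and Illumina TruSeq libraries are named in the labels' protocols, and CASAVA, TopHat and Cufflinks with build mm10 in the submitters' processing notes. The deposited values were read as FPKM per locus. No label states that unit, which was inferred from the Cufflinks locus names and the value range. The sources used here give no versions, annotation or strand setting, and no scaling step. Library sums were 497542 to 524474 FPKM. The number of cKO 1 is that of its title, while its description carries the number 3.

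Loci reaching 1 FPKM in 3 or more libraries were tested on log2(FPKM + 1) with limma 3.58.1 (R 4.3.3, trend, two-sided), with Benjamini-Hochberg adjustment over all loci and a threshold of 0.05, after the fit had been checked on simulated data. That check simulated only loci kept by this filter, with noise independent between libraries. It does not cover the fits in which Hox loci were tested. Single Hox genes were also compared with an exact two-sided permutation test (scipy 1.17.1). Fragments were estimated as FPKM times transcript length (GENCODE M21) times a library scale, the peak of the reciprocal of FPKM times length over single-transcript loci longer than 1500 bases. On that scale 61.2 to 80.4% of low values lay within 0.15 of a whole number, against 30% under an even spread. The processing sets were taken from earlier work on these data, and no label names them. Here cKO 3 and control 1, which form the smaller set, had the lowest shares of such near-whole values (62.1 and 61.2%). Cufflinks corrects lengths, so the estimates are approximate. Alternatives were other pseudocounts, filters and scalings, the replicate number, deposit or processing set as a covariate, the larger processing set (cKO 1 and 2, controls 2 and 3) or the first deposit (cKO 1 and 2, controls 1 and 2) alone, small RNA loci left out, and each library left out. Promoters are from RefSeq (GRCm38.p6). Tables were handled in pandas 2.3.3 and numpy 2.4.6 under Python 3.11.15, and plots drawn in matplotlib 3.10.9.

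The Hox genes, lists and tests were chosen with earlier results of these data known. Named were the 6 Hox loci of the highest mean and, of each list, members that passed or else the 3 of the highest mean. Other genes, the receptor sets, the relatives, the neighbours and the promoters were picked after values were seen. A few members that the rule names are counted but not reported here by name. Of the list symbols 11 were not found in the table under that name; 5 of them stand there under another symbol by RefSeq's synonyms and were measured as that locus (Drgx as Prrxl1, Lnpk as Lnp, Hoxa11as as Hoxa11os, Haglr as 6720416L17Rik and Hoxaas3 as 2700086A05Rik), and the other 6 were not analysed here. Neighbours were placed by GENCODE symbol or, failing that, by a RefSeq synonym or symbol, which left 128 symbols unplaced.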

Additional observations from a re-analysis of the deposited data

How the results depend on the processing

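The count of Hox loci under 0.1 FPKM was 37, and it was 33 at a limit of 0.05 FPKM and 38 at 0.2 FPKM. The count reaching 1 FPKM in 3 libraries was 0 under all 10 alternatives tried. With no Hox value over 0.213 FPKM, these alternatives could hardly have changed it. Hox loci entered the limma test under 2 of 20 alternatives: 23 with no filter and 1 with at least 0.1 FPKM in 3 libraries and a pseudocount of 0.1, with 0 passing in either. The other 18 tested no Hox locus. The summed Hox difference of 0.195 FPKM ran from 0.137 to 0.231 FPKM with a library left out (lowest without cKO 2), and was 0.172 FPKM without Hoxa2 and 0.244 FPKM in the larger processing set. The log2 differences of Hoxb3, Hoxc8, Hoxb2 and Hoxa3 depend on the pseudocount; at 0.1 they were 0.49, 0.35, 0.47 and 0.20. Against 78 loci and 2 list members called, 28 and 1 were called with no filter, 30 and 1 where means reached 5 FPKM, 22 and 0 with the deposit as a covariate, 30 and 1 in the larger processing set alone, and 331 and 5 with small RNA loci left out. With libraries of the first deposit alone 1 list member was called. Leaving out each library in turn gave 21 to 55 loci and 0 to 2 list members. With small RNA loci left out, Dbh, Slc6a2 and Kdm6a passed as well (limma adjusted p = 0.0279, 0.0254 and 0.0428), as did Zeb2 (0.0438). The adjusted p of Zeb2 ranged from 0.0438 to 0.312 over the alternatives, and that of Gbx2 from 0.00295 to 0.160. The causes were not tested. The replicate numbers of the titles were not shown to pair libraries: deviations of same-numbered libraries correlated at -0.03, 0.04 and 0.05, and not every library correlated best with its own number. With the replicate number as a block 15 loci and 0 list members were called. Depth limits each Hox value to a few fragments.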
